A study of Mus musculus with 6 samples.

Results

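The collecting duct principal cell is described here by 10 genes for its water channels, its sodium channel and the hormone receptors and enzymes that govern them. The members are Aqp2, Aqp3, Aqp4, Scnn1a, Scnn1b, Scnn1g, Avpr2, Hsd11b2, Nr3c2 and Sgk1, chosen by name and matched to Ensembl identifiers through their mm10 symbols. They are 10 of the 32285 genes in the count table, and all 10 were among the 15955 genes that passed the filter on low counts. RNA-seq of whole kidney was compared between 3 high-load mice, with TrnE mutation loads of 75%, 75% and 80%, and 3 control mice with loads of 10%, 5% and 15%. TrnE encodes the tRNA for glutamate in mitochondrial DNA, and the load is the percentage of mutated copies. All 6 mice were 100 weeks old and female per the labels, and every control carried the mutation at a low load. The kidneys are called high-load 1 to 3 and control 1 to 3. The sources used here give no strain.

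Principal cells line the connecting tubule and collecting duct and set how much water and sodium leave with the urine. Vasopressin binds the V2 receptor, encoded by Avpr2, on the blood side of the cell, and cyclic AMP then moves the water channel AQP2 to the urine side, while AQP3 and AQP4 let the water out into the blood. Aldosterone binds the mineralocorticoid receptor, encoded by Nr3c2, which raises transcription of the kinase gene Sgk1 and of Scnn1a. SGK1 keeps the epithelial sodium channel ENaC, built from the products of Scnn1a, Scnn1b and Scnn1g, in the membrane, and the enzyme of Hsd11b2 protects the receptor from glucocorticoids by inactivating them.

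Total counts per library were 17449270 to 18865997. The library labelled control 2 goes against its label of sex. Its Xist level was 0.182 CPM (read counts relative to each TMM-scaled library total), against 662 to 948 CPM in the other 5 kidneys, and the Y-linked genes Ddx3y, Eif2s3y, Kdm5d and Uty stood at 24.5 to 77.5 CPM in it and at 0 counts in the other 5. Whether its load and group labels hold was not tested, and it was kept in its labelled group. Fold changes of the 10 genes are given with and without control 2, as are TPM means, ratios and list counts that it moves. High-load 1 stood apart in its makeup. The summed level of 8 urothelium markers, genes of the lining of the renal pelvis, was 236, 4.07 and 3.17 CPM in high-load 1 to 3 and 49.2, 32.1 and 16.4 CPM in control 1 to 3, and the summed level of 16 proximal tubule markers was 5247, 15240 and 11120 CPM in high-load 1 to 3 and 18350, 21950 and 20080 CPM in control 1 to 3. Defining kidney genes were present in all 6 libraries, with Umod at 2933 to 5422 CPM and Lrp2 at 514 to 2864 CPM. In whole kidney, fewer principal cells and less RNA per cell cannot be told apart.

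No member passed edgeR's quasi-likelihood test at an adjusted p under 0.05, where 0.0188% of all genes tested did. The sodium channel subunit Scnn1b was higher and the kinase Sgk1 lower in every high-load kidney than in every control. Mean levels of the 3 water channels were lower in high-load kidneys, but their groups overlapped. At an adjusted p under 0.1, 0 members passed, beside 3.2% of all genes tested. Scnn1b and Scnn1g were higher and Aqp4 and Sgk1 lower at an unadjusted p under 0.05, which is 4 of 10 beside 24.2% of all genes tested (14.0% higher and 10.2% lower). limma-voom called 0 members. The groups did not overlap for 1 higher member and 1 lower member, beside 33.0% of all genes (17.1% higher and 15.8% lower). The median log2 fold change of the 10 members was 0.028, and that of all genes tested was 0.0068. Without high-load 1 the median of the members was -0.027, and without control 2 it was 0.052. DESeq2 called Scnn1b (adjusted p 0.0245) and Sgk1 (adjusted p 0.00209), beside 7.13% of all genes it gave a p (4.51% higher and 2.62% lower). Without control 2 DESeq2 called Scnn1b, Scnn1g and Sgk1, beside 2.57% of genes (1.9% higher and 0.669% lower), and edgeR called 0 members. The DESeq2 shares are over 23811 genes, and 23623 without control 2, with no filter on low counts. They are therefore not on the same footing as the edgeR shares.

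**Figure D1:**
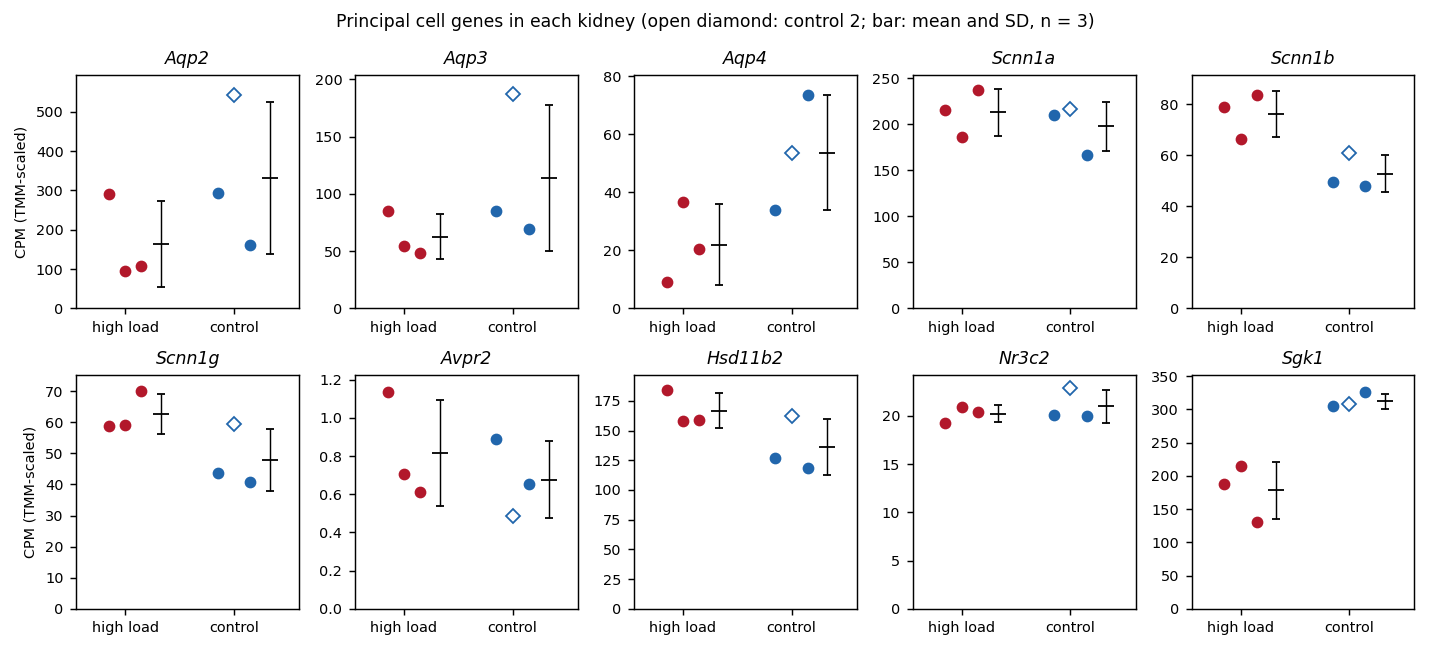
Level of each of the 10 genes in CPM (linear axes from 0) in the 3 high-load kidneys, left, and the 3 control kidneys, right, in the order of replicates 1 to 3. The open diamond is control 2, and the bar gives the mean and SD of 3 kidneys. For Sgk1 the high-load kidneys sit between 131 and 215 CPM and the controls between 304 and 326 CPM.

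Aqp2 (ENSMUSG00000023013, chr15:99579055-99584547, mm10, plus strand) encodes the water channel that vasopressin places in the urine-facing membrane. It was at 291, 95.2 and 107 CPM in high-load 1 to 3 and at 293, 542 and 162 CPM in control 1 to 3. The groups overlapped, since high-load 1 was level with control 1 and above control 3, and control 2 stood above all other kidneys. The means were 165 ± 109.7 CPM in high-load and 332 ± 193 CPM in control kidneys (SD, n = 3 each), a log2 fold change of -1.01 (SE 0.58, edgeR adjusted p 0.321). Without control 2 the control mean was 227 CPM and the log2 fold change -0.47 (SE 0.55, adjusted p 0.676). Without high-load 1 it was -1.71 (adjusted p 0.207), and without control 2 and high-load 1 it was -1.16 (SE 0.29, adjusted p 0.199). The urothelium sums given above were likewise higher in high-load 1 than in the other 2 high-load kidneys, and their part in the Aqp2 values was not tested.

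Aqp3 (ENSMUSG00000028435, chr4:41092722-41098183, minus strand), which encodes a basolateral water and glycerol channel, was at 84.9, 54.5 and 48.0 CPM in high-load 1 to 3 and at 85.2, 187 and 69.3 CPM in control 1 to 3. The order of the kidneys matched that of Aqp2 except for high-load 2 and 3, with control 2 again far above the rest. The log2 fold change was -0.87 (SE 0.41, edgeR adjusted p 0.247), and -0.31 (SE 0.26, adjusted p 0.553) without control 2. Aqp4 (ENSMUSG00000024411, chr18:15389496-15410982, minus strand) encodes the other basolateral water channel of principal cells, which in mouse is also found in the straight proximal tubule. It was at 8.98, 36.6 and 20.4 CPM in high-load 1 to 3 and at 34.0, 53.6 and 73.4 CPM in control 1 to 3. Here high-load 1 was the lowest of the 6 kidneys and control 3 the highest, and the groups overlapped only through high-load 2 and control 1. The log2 fold change of Aqp4 was -1.29 (SE 0.51, edgeR adjusted p 0.189), and it was -1.29 (SE 0.60, adjusted p 0.344) without control 2 and -1.88 (adjusted p 0.0817) without high-load 2. The proximal tubule sums given above have the same order as Aqp4 among the 3 high-load kidneys, and their part in its values was not tested.

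Avpr2 (ENSMUSG00000031390, chrX:73892102-73895502, plus strand), the vasopressin V2 receptor gene, had 24, 13 and 11 counts in high-load 1 to 3 and 16, 8 and 12 counts in control 1 to 3. That is 0.612 to 1.13 CPM in high-load and 0.486 to 0.888 CPM in control kidneys, with a log2 fold change of 0.28 (SE 0.38, edgeR adjusted p 0.688), and of 0.091 (SE 0.42, adjusted p 0.923) without control 2. Exons of Arhgap4 on the opposite strand cover 81.3% of the exon bases of Avpr2, and the sources used here do not say whether counting used strand, so that these reads cannot be assigned to Avpr2 with certainty.

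Promoter sequences are shown for Aqp2 and Aqp3, whose levels followed each other across the kidneys, and for Sgk1, the member with the smallest p. The 250 bases before the transcript start come from RefSeq (GRCm38.p6, the mm10 assembly), which matched 7 of the 10 members. Capitals mark exact matches, on either strand, to 5 motifs. TATAAA is the TATA box. The core of the cyclic AMP response element is TGACG. An arm of the steroid receptor response element is AGAACA. Factors of the GATA family bind AGATAA. The core of the element for the tonicity factor NFAT5 is TGGAAA. These letters are written 5′ to 3′ on the strand of the gene, and no marked match overlaps another.
Aqp2 (chr15:99578806-99579055, plus strand): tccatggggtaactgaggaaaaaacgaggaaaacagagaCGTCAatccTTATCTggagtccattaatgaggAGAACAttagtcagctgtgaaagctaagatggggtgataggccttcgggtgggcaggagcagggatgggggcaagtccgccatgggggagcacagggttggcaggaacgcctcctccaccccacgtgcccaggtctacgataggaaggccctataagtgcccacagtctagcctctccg
Aqp3 (chr4:41098184-41098433, minus strand): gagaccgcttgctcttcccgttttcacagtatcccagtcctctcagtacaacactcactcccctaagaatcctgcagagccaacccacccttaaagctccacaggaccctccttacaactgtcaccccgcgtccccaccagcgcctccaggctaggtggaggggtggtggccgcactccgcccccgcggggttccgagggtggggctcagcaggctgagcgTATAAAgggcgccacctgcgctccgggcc
Sgk1 (chr10:21994416-21994665, plus strand, before the principal transcript Sgk1-201): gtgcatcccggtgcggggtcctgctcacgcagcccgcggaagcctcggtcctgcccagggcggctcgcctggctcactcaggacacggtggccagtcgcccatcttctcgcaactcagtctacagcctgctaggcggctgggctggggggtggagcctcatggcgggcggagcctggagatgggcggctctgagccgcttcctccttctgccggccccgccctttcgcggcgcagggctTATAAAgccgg
The Aqp2 window holds TGACG on the reverse strand 211 to 207 bases before the start, AGATAA on the reverse strand 202 to 197 bases before it, and AGAACA 179 to 174 bases before it. Aqp3 holds TATAAA 29 to 24 bases before its start and Sgk1 holds it 11 to 6 bases before its start. The windows of Scnn1b and Scnn1g held 0 of the 5 motifs, and TGGAAA was in 0 of these 5 windows. Over 32851 windows of 250 bases, 12.4% held TATAAA, 17.8% TGACG, 16.1% AGAACA, 10.0% AGATAA and 18.6% TGGAAA, so that single matches are common. A match is a description of letters and not of binding.

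ENaC needs its 3 subunits together to conduct well. Scnn1a (ENSMUSG00000030340, chr6:125320659-125344943, plus strand), for the alpha subunit that aldosterone induces in the collecting duct, was at 216, 187 and 237 CPM in high-load 1 to 3 and at 210.0, 217 and 167 CPM in control 1 to 3. The groups overlapped, and the log2 fold change was 0.11 (SE 0.15, edgeR adjusted p 0.683), and 0.18 (SE 0.17, adjusted p 0.603) without control 2. Scnn1b (ENSMUSG00000030873, chr7:121865038-121918514, plus strand), for the beta subunit, was at 78.9, 66.4 and 83.8 CPM in high-load 1 to 3 and at 49.6, 61.1 and 47.9 CPM in control 1 to 3. Every high-load kidney stood above every control. The means were 76.4 ± 8.99 CPM in high-load and 52.9 ± 7.15 CPM in control kidneys (SD, n = 3 each), a log2 fold change of 0.53 (SE 0.13, edgeR adjusted p 0.113). Without control 2 it was 0.64 (SE 0.13, adjusted p 0.260).

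Scnn1g (ENSMUSG00000000216, chr7:121734479-121768475, plus strand), for the gamma subunit, lies on the same strand 96562 bases before Scnn1b. It was at 58.7, 59.2 and 70.1 CPM in high-load 1 to 3 and at 43.7, 59.4 and 40.9 CPM in control 1 to 3. Control 2 lay among the high-load kidneys, and the other 2 controls lay below all 3 of them. The log2 fold change was 0.38 (SE 0.16, edgeR adjusted p 0.202), and 0.56 (SE 0.12, adjusted p 0.260) without control 2. DESeq2 without control 2 gave Scnn1g an adjusted p of 0.0285 and Scnn1b one of 0.0116.

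Nr3c2 (ENSMUSG00000031618, chr8:76899442-77245012, plus strand), the mineralocorticoid receptor gene, varied little between kidneys. It was at 19.3, 21.0 and 20.4 CPM in high-load 1 to 3 and at 20.1, 22.9 and 19.9 CPM in control 1 to 3, with a log2 fold change of -0.053 (SE 0.10, edgeR adjusted p 0.779). Without control 2 the log2 fold change was 0.013, and 247 of its exon bases overlap the opposite-strand gene Gm10649. Hsd11b2 (ENSMUSG00000031891, chr8:105518755-105523988, plus strand), for the enzyme that inactivates glucocorticoids beside the receptor, was at 184, 158 and 159 CPM in high-load 1 to 3 and at 127, 163 and 118 CPM in control 1 to 3. As with Scnn1g, control 2 lay among the high-load kidneys and the other 2 controls below them. The log2 fold change of Hsd11b2 was 0.30 (SE 0.15, edgeR adjusted p 0.261), and 0.44 (SE 0.12, adjusted p 0.266) without control 2.

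Sgk1 (ENSMUSG00000019970, chr10:21882184-21999903, plus strand), the kinase gene induced by aldosterone and by glucocorticoids, was at 188, 215 and 131 CPM in high-load 1 to 3 and at 304, 308 and 326 CPM in control 1 to 3. Every high-load kidney stood below every control, and the controls were close together. The means were 178 ± 43.0 CPM in high-load and 313 ± 11.4 CPM in control kidneys (SD, n = 3 each), a log2 fold change of -0.81 (SE 0.19, edgeR adjusted p 0.103), and of -0.83 (SE 0.22, adjusted p 0.266) without control 2. Without high-load 2 it passed (log2 fold change -0.97, edgeR adjusted p 0.0476), beside 4.96% of all genes called in that fit (3.34% higher and 1.62% lower). SGK1 acts in many cell types, so that whole-kidney Sgk1 is not a measure of principal cells alone.

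**Figure D2:**
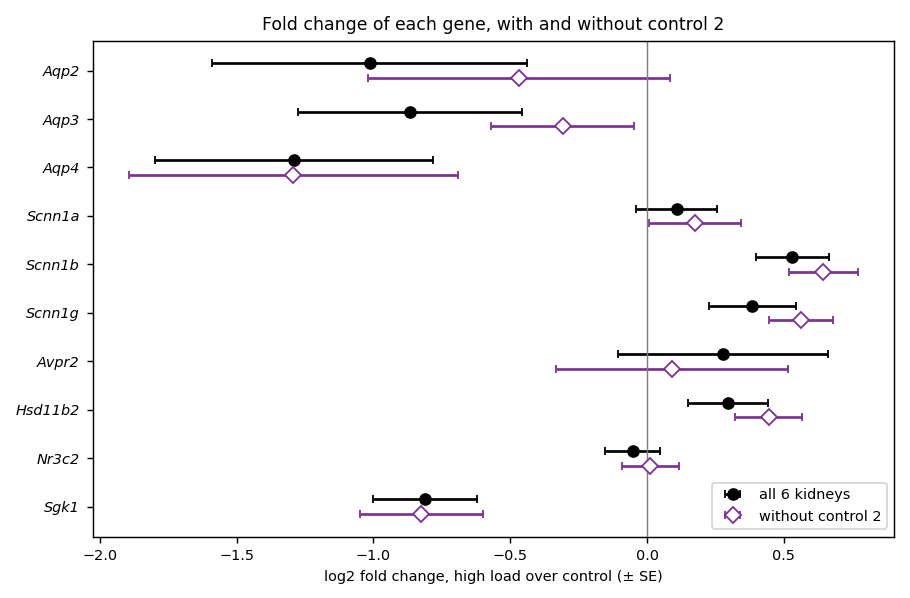
Log2 fold change of each gene, high load over control, with its SE, from edgeR on all 6 kidneys (filled circles) and without control 2 (open diamonds). Aqp2 is at -1.01 and -0.47 and Aqp3 at -0.87 and -0.31, while Sgk1 is at -0.81 and -0.83.

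Without control 2, groups did not overlap for 3 higher members, Scnn1b, Scnn1g and Hsd11b2, and for 1 lower member, Sgk1. Over all genes the share was then 42.6% (21.6% higher and 20.9% lower). At an unadjusted p under 0.05 the same 4 members passed in edgeR without control 2, beside 16.1% of all genes tested (9.84% higher and 6.25% lower). With sex as a term in the fit of all 6 kidneys, 0 members passed at an adjusted p under 0.05. Log2 fold changes were -0.46 for Aqp2, -0.31 for Aqp3, 0.65 for Scnn1b, 0.57 for Scnn1g, 0.45 for Hsd11b2 and -0.82 for Sgk1. Only control 2 differs in this term, so the fit amounts to leaving control 2 out and is not a separate check.

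Levels between genes were compared as TPM, a level per length that divides counts by the union of a gene's exons and scales each kidney to 1 total. In high-load kidneys Aqp2 averaged 333 ± 262 TPM, Hsd11b2 249 ± 52.6 TPM, Scnn1a 141 ± 22.8 TPM, Sgk1 99.7 ± 28.6 TPM, Aqp3 95.5 ± 42.2 TPM, Scnn1b 79.3 ± 13.9 TPM and Scnn1g 56.9 ± 5.10 TPM. In control kidneys Aqp2 averaged 606 ± 345 TPM, Hsd11b2 192 ± 30.5 TPM, Sgk1 166 ± 8.75 TPM, Aqp3 162 ± 88.4 TPM, Scnn1a 125 ± 15.0 TPM, Scnn1b 52.3 ± 6.31 TPM and Scnn1g 41.8 ± 8.03 TPM (SD, n = 3 each). Aqp4, Nr3c2 and Avpr2 closed the order in both groups, with means of 9.28, 8.50 and 0.794 TPM in high-load and 22.5, 8.44 and 0.611 TPM in control kidneys. Without control 2 the control means were 419 TPM for Aqp2, 175 TPM for Hsd11b2, 169 TPM for Sgk1, 120 TPM for Scnn1a and 111 TPM for Aqp3, so that Scnn1a stood before Aqp3. Neighbours whose ranges over the kidneys overlapped were not told apart by those ranges. In high-load kidneys these were Aqp2 and Hsd11b2, Scnn1a and Sgk1, Sgk1 and Aqp3, Aqp3 and Scnn1b, and Aqp4 and Nr3c2. In control kidneys they were Hsd11b2 and Sgk1, Sgk1 and Aqp3, Aqp3 and Scnn1a, and Scnn1b and Scnn1g. Hsd11b2 exceeded Aqp2 in 2 of 3 high-load kidneys and in 0 of 3 controls. Compared within each kidney, Scnn1a exceeded Sgk1 in 3 of 3 high-load kidneys and Scnn1b exceeded Scnn1g in 3 of 3 controls. The other overlapping pairs did not keep 1 order in all kidneys of the group.

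**Figure D3:**
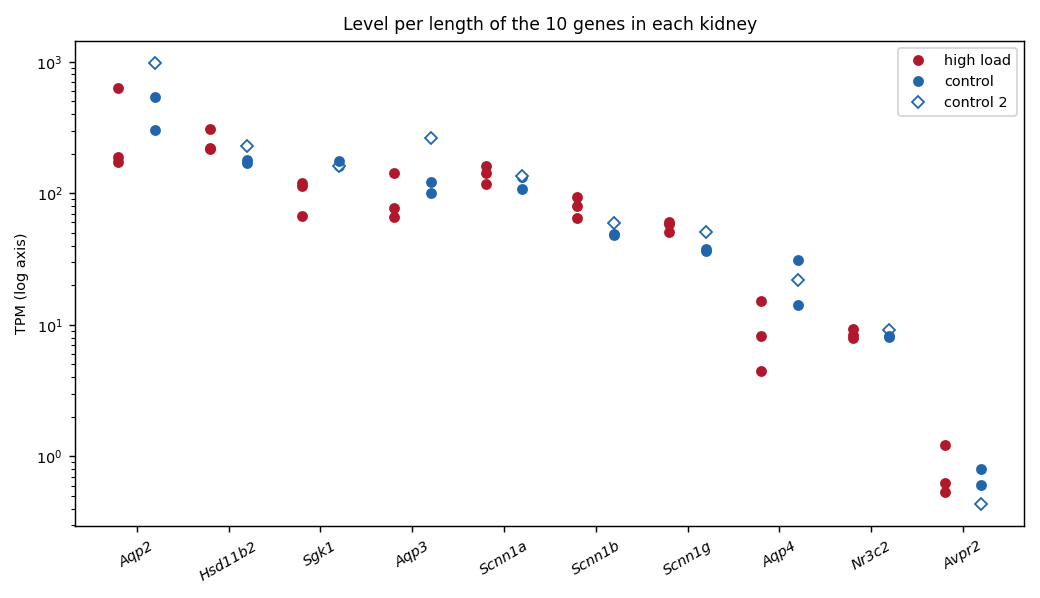
TPM of the 10 genes (log axis) in the high-load kidneys, left of each pair, and the control kidneys, right, with control 2 as an open diamond, ordered by the control mean. Sgk1 is at 66.9 to 119 TPM in high-load and 161 to 176 TPM in control kidneys, and Aqp2 has the widest spread of the genes above 50 TPM.

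Ratios of TPM within a kidney do not depend on scaling between libraries. For 8 ratios the groups were compared with an exact two-sided permutation test, whose smallest p is 0.1 with 3 against 3 kidneys, so that no ratio could pass. The ratio of Scnn1a to the geometric mean of Scnn1b and Scnn1g was 2.15, 2.02 and 2.10 in high-load 1 to 3 and 3.06, 2.44 and 2.56 in control 1 to 3. The groups did not overlap (log2 difference -0.36, exact p 0.1, adjusted p 0.267 over the 8 ratios), and the difference was -0.42 without control 2. The ratio of Scnn1b to Scnn1g, at 1.28 to 1.53 in high-load and 1.17 to 1.33 in control kidneys, overlapped (exact p 0.3, adjusted p 0.4). The ratio of Hsd11b2 to Nr3c2 was 33.6, 26.5 and 27.4 in high-load 1 to 3 and 22.2, 25.0 and 20.9 in control 1 to 3, without overlap (log2 difference 0.36, exact p 0.1, adjusted p 0.267, and 0.43 without control 2). The ratio of Sgk1 to Nr3c2 was 12.9, 13.6 and 8.46 in high-load 1 to 3 and 20.01, 17.7 and 21.6 in control 1 to 3, also without overlap (log2 difference -0.79, exact p 0.1, adjusted p 0.267, and -0.87 without control 2). Ratios with an aquaporin overlapped in all 4 cases. The geometric mean of the 3 ENaC genes over Aqp2 was 0.153, 0.421 and 0.462 in high-load 1 to 3 and 0.117, 0.0756 and 0.189 in control 1 to 3 (log2 difference 1.38, exact p 0.2, adjusted p 0.32, and 1.06 without control 2), where high-load 1 lay between the controls. Aqp2 over Aqp3, Aqp4 over Aqp3 and Avpr2 over Aqp2 had log2 differences of -0.26, -0.67 and 1.30 (exact p 0.4, 0.6 and 0.2, adjusted p 0.457, 0.6 and 0.32). Without control 2 these differences were -0.25, -1.06 and 0.65, and without high-load 1 that of Aqp4 over Aqp3 was 0.11.

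**Figure D4:**
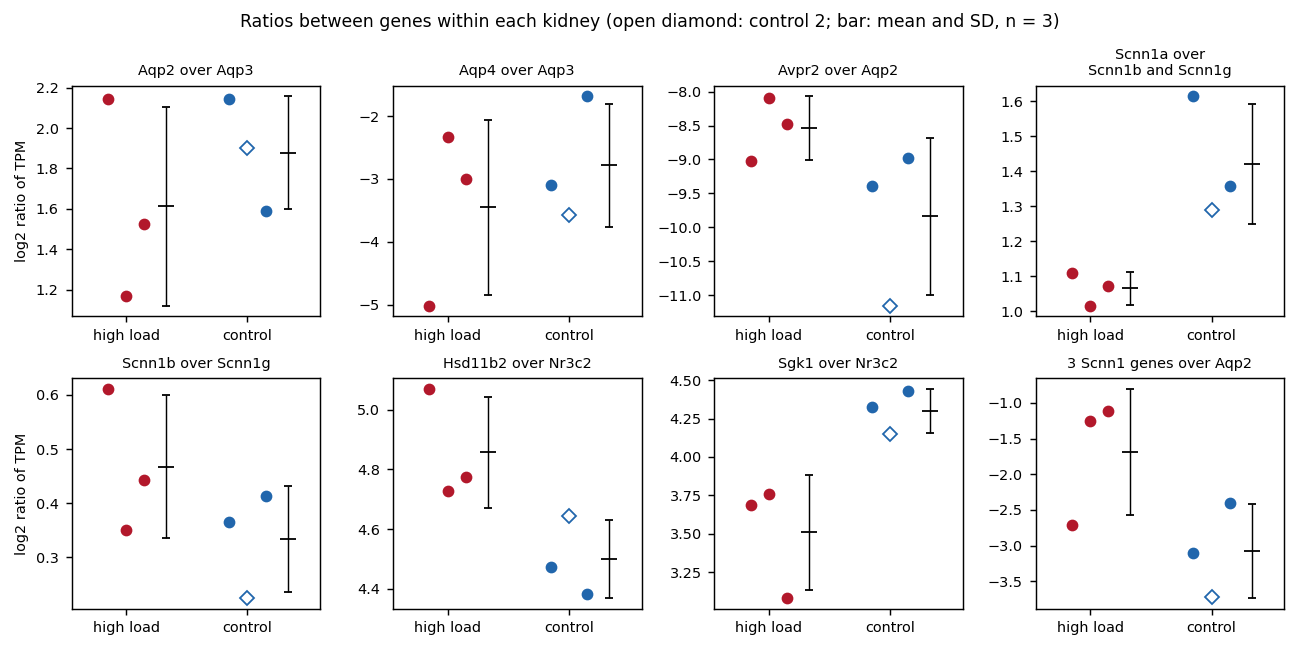
Log2 ratio of TPM between genes in each kidney, high load left and control right, for the 8 ratios, with control 2 as an open diamond and bars for the mean and SD of 3 kidneys (axes do not start at 0). The ratio of Scnn1a to Scnn1b and Scnn1g sits at 1.02 to 1.108 in high-load and 1.29 to 1.61 in control kidneys on the log2 scale.

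Genes around these channels were counted in 5 lists, and 0 genes of any list passed over all genes tested in edgeR. For vasopressin signalling and AQP2 trafficking or transcription (28 genes, all tested), 5 were higher and 3 lower at an unadjusted p under 0.05, with a median log2 fold change of -0.052. Over all genes tested 14.0% were higher and 10.2% lower at that threshold, with a median of 0.0068, and these are the values to set beside each list. Without control 2 the counts of this list were 6 higher and 3 lower. Myo5b, a motor that recycles AQP2 vesicles, was at 71.1, 88.4 and 83.8 CPM in high-load 1 to 3 and at 118, 128 and 138 CPM in control 1 to 3 (log2 fold change -0.66, edgeR adjusted p 0.0936). Prkar2a, a regulatory subunit of protein kinase A, had a log2 fold change of -0.34 (edgeR adjusted p 0.102), and Lyst, a lysosomal trafficking regulator, one of 0.46 (edgeR adjusted p 0.118). In these 3 genes, named for their small p, the groups did not overlap. Over the whole list that held for 6 higher and 7 lower genes, beside 17.1% higher and 15.8% lower over all genes.

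In the list of aldosterone signalling and ENaC regulation (29 genes, all tested), 0 were higher and 6 lower at an unadjusted p under 0.05, 22 of 29 had a negative log2 fold change, and the median log2 fold change was -0.18. Over all genes tested 10.2% were lower at that threshold, and 7826 of 15955 had a negative log2 fold change. Without control 2 the counts at that threshold were 1 higher and 3 lower, beside 9.84% higher and 6.25% lower over all genes. Usp2, a deubiquitinase that counters removal of ENaC and is induced by aldosterone, was at 79.4, 90.7 and 74.7 CPM in high-load 1 to 3 and at 123, 144 and 117 CPM in control 1 to 3 (log2 fold change -0.65, edgeR adjusted p 0.0946). Klf9, a transcription factor gene that glucocorticoids induce, had a log2 fold change of -0.68 (edgeR adjusted p 0.133). Nedd4l, the ubiquitin ligase that removes ENaC and that SGK1 phosphorylates, was at 132, 167 and 151 CPM in high-load 1 to 3 and at 222, 177 and 211 CPM in control 1 to 3 (log2 fold change -0.44, edgeR adjusted p 0.140). All 3, named for their small p, were below every control in every high-load kidney. Over the whole list the groups did not overlap for 1 higher and 9 lower genes. The share over all genes was 17.1% higher and 15.8% lower. Rictor and Mapkap1, subunits of the mTORC2 complex that phosphorylates SGK1 and chosen after their values were seen, had log2 fold changes of -0.24 and -0.27 (edgeR adjusted p 0.157 and 0.145).

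The list of proteases that cleave ENaC and their inhibitors (10 genes, all tested) had 3 higher and 1 lower at an unadjusted p under 0.05, and a median log2 fold change of 0.28. This median pools both kinds. Among the proteases, Prss8, Furin, Klk1 and Plau had negative log2 fold changes (-0.55, -0.40, -0.71 and -0.19), while Tmprss4, St14 and Ctsb had positive ones (2.28, 0.70 and 0.30). The inhibitors Spint1, Spint2 and Serpine2 were at 0.27, 0.29 and 0.48, and Serpine2 was among the higher genes counted. Tmprss4, a membrane serine protease, was at 7.75, 2.55 and 5.90 CPM in high-load 1 to 3 and at 1.61, 0.790 and 0.926 CPM in control 1 to 3 (log2 fold change 2.28, edgeR adjusted p 0.0981). St14, which encodes matriptase, was at 152, 95.2 and 125 CPM in high-load 1 to 3 and at 81.3, 70.1 and 78.5 CPM in control 1 to 3 (log2 fold change 0.70, edgeR adjusted p 0.113). Furin, the convertase that cuts ENaC on its way to the membrane, had a log2 fold change of -0.40 (edgeR adjusted p 0.115). Summed levels of 13 injured tubule markers were also higher in the high-load kidneys, at 12670, 6260 and 11810 CPM in high-load 1 to 3 and 4429, 3914 and 3078 CPM in control 1 to 3, and their part in the protease values was not tested. Exons of Nedd4l, Usp2, Tmprss4 and Furin overlap genes on the opposite strand.

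Of 9 other aquaporins, 4 were tested, and 0 were higher and 3 lower at an unadjusted p under 0.05. Aqp12 had 0 counts in all 6 kidneys. Aqp1, the water channel of the proximal tubule and thin descending limb, was at 556, 756 and 553 CPM in high-load 1 to 3 and at 939, 1631 and 1179 CPM in control 1 to 3 (log2 fold change -1.01, edgeR adjusted p 0.114, and -0.77 without control 2). Aqp11, an intracellular aquaporin of the proximal tubule, had a log2 fold change of -0.996 (edgeR adjusted p 0.113) and Aqp7, a proximal tubule glycerol channel, one of -0.67 (edgeR adjusted p 0.180). Proximal tubule markers, a list that itself holds Aqp1, had 16 of 16 below a fold change of 1. Their median log2 fold change was -0.89, and their part in these aquaporin values was not tested.

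Among 10 targets of the tonicity factor NFAT5 and urea transporters, all tested, 0 were higher and 2 lower at an unadjusted p under 0.05, with a median log2 fold change of -0.25. Without control 2, 0 were higher and 3 lower. Slc14a2, which encodes the urea transporters UT-A of the inner medullary collecting duct and thin limbs, was at 19.7, 14.6 and 2.06 CPM in high-load 1 to 3 and at 60.8, 85.9 and 66.4 CPM in control 1 to 3. The groups did not overlap, with a log2 fold change of -2.54 (SE 0.66, edgeR adjusted p 0.117) and of -2.39 (adjusted p 0.277) without control 2. Slc6a12, the betaine transporter, had a log2 fold change of -1.54 (edgeR adjusted p 0.212), and its groups overlapped, with 4.54, 1.47 and 0.724 CPM in high-load 1 to 3 and 6.27, 9.36 and 4.14 CPM in control 1 to 3. It was -1.20 without control 2 and -2.57 without high-load 1. Pnpla6, a phospholipase that NFAT5 regulates, had one of -0.23 (edgeR adjusted p 0.160).

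**Figure D5:**
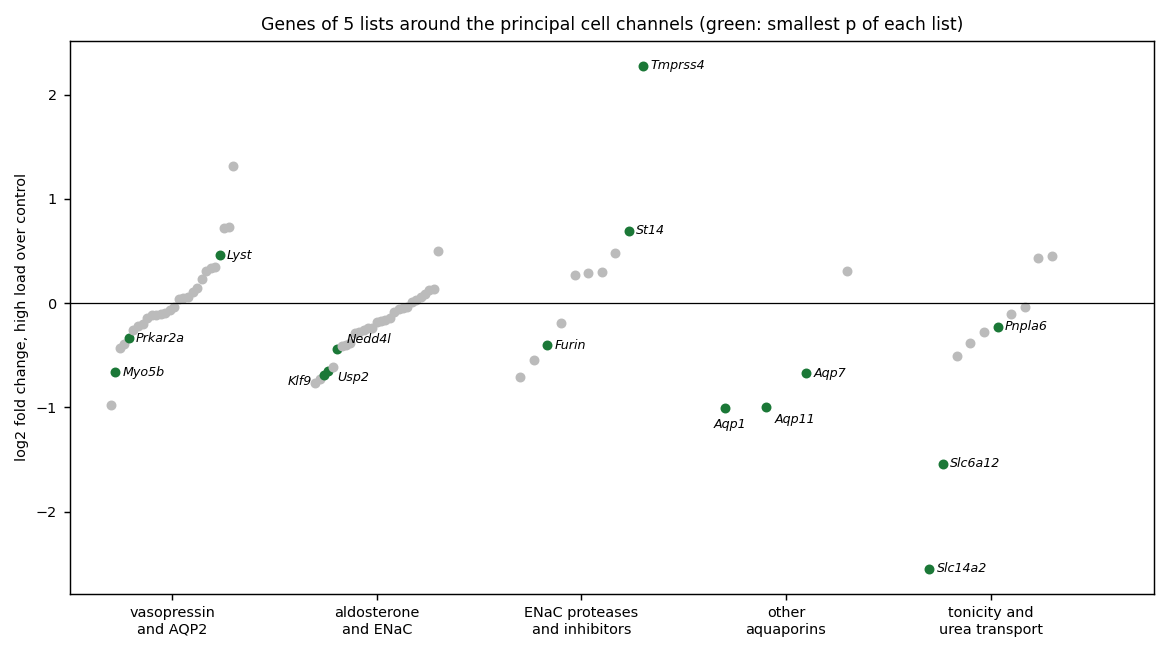
Log2 fold change, high load over control, of every tested gene in the 5 lists, sorted within each list. Green points are the 3 genes with the smallest p in each list, with Tmprss4 at 2.28 and Slc14a2 at -2.54 at the ends.

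Other cell type lists served to set these values beside the rest of the distal nephron, and 0 of their genes passed over all genes tested in edgeR. Median log2 fold changes were -0.076 for 17 other principal cell markers (6 higher and 0 lower at an unadjusted p under 0.05), -0.090 for 19 intercalated cell markers (5 and 1), -0.27 for 14 distal convoluted and connecting tubule markers (1 and 2) and -0.28 for 15 thick ascending limb markers (2 and 5). Of the 17 other principal cell markers, 8 had positive and 9 negative log2 fold changes. The 2 with the highest mean CPM, Cdh16 and Tfcp2l1, were at -0.20 and -0.11 (edgeR adjusted p 0.464 and 0.720). The higher principal cell markers included Krt18 and Krt8, keratins also present in other simple epithelia, both chosen after their values were seen. Their log2 fold changes were 2.23 and 1.06 (edgeR adjusted p 0.0983 and 0.140). Krt18 was at 179, 44.7 and 92.9 CPM in high-load 1 to 3 and at 26.9, 22.2 and 18.5 CPM in control 1 to 3, and without high-load 1, the kidney with the highest urothelium sum, the log2 fold changes were 1.61 for Krt18 and 0.65 for Krt8. Without control 2 the other principal cell markers had 4 higher and 1 lower, the intercalated cell markers 5 and 1, the distal convoluted and connecting tubule markers 1 and 1, and the thick ascending limb markers 3 and 5. Without high-load 1 the medians turned to 0.10 for the other principal cell markers and 0.11 for the intercalated cell markers. They were then -0.148 for the distal convoluted and connecting tubule markers and -0.365 for the thick ascending limb markers. Summed levels of the 17 principal cell markers were 3161, 2825 and 3253 CPM in high-load 1 to 3 and 3135, 2936 and 2825 CPM in control 1 to 3, so that the groups overlapped. Much of this sum came from few genes, with Cdh16 at 926 to 1257 CPM, Tfcp2l1 at 387 to 539 CPM and Mal at 308 to 514 CPM. Kcnj1, at 265 to 325 CPM, is also in the thick ascending limb list. The sum is therefore not a measure of principal cells alone. Median log2 fold changes were 1.29 for 13 injured tubule markers, 1.00 for 11 tested leukocyte markers, 1.07 for 12 immediate early genes, 1.15 for 7 tested urothelium markers and -0.083 for 8 podocyte markers. For injured tubule markers, leukocyte markers and immediate early genes they were 1.07, 0.762 and 0.557 without high-load 1. Without control 2 these were 1.32, 1.02 and 0.894. The urothelium median rests on high-load 1, since without it all 7 tested markers had negative log2 fold changes (fitted median -4.38, whose size depends on the prior count because Krt5 had 0 counts in the other 2 high-load kidneys). The podocyte median was 0.20 without high-load 1. Whether the 10 genes differ from these lists was not tested.

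The patterns of single genes over the 6 kidneys were compared by the root mean square difference of centred log2 CPM, over 14889 genes with a mean of at least 1 CPM. Nearest to Aqp2 among genes outside the 10 were Ranbp3l (difference 0.263), Tsku (0.296), Serpina1c (0.332) and Gm15441 (0.337), and Aqp3 followed at 0.352, the fifth nearest gene in all. Scnn1b and Aqp4 were at 1.01 and 1.30 from Aqp2. Nearest to Scnn1g outside the 10 were Epdr1 (0.0533), Hsf4 (0.0642), Ikzf4 (0.0724) and Bcl2l12 (0.0780). Among the 10, Scnn1b was at 0.116, Hsd11b2 at 0.145 and Scnn1a at 0.195 from Scnn1g. Their ranks by nearness to Scnn1g were 22, 91 and 532 of 14889 genes. These are descriptions over 6 kidneys. The differences are not scaled, so genes that vary little lie nearer to Scnn1g than to Aqp2, as Nr3c2 did, at 0.259 and 0.86. Each gene named for Aqp2 was highest in control 2, as Aqp2 was, and the comparison was not made without that kidney. Serpina1c had 8 to 35 counts per kidney and Gm15441 12 to 75.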

How the data were processed

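The authors deposited 1 table of raw read counts per Ensembl gene, with 1 column for each of 6 mouse kidneys. Per the labels' protocols, RNA was extracted with TRIzol and libraries made with an Illumina TruSeq kit. Per the submitters' processing notes, the build was mm10 and the tools included featureCounts 2.0.1, HISAT2 2.2.1 and fastp 0.23.2. The sources used here name no annotation, strand setting or handling of multiply mapped reads.

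Columns were mapped by the mouse codes in the labels, and groups by sample titles. GENCODE M21 gave symbols, positions and exon lengths for 32235 of 32285 genes. The main test was edgeR 4.0.16 (R 4.3.3) with filterByExpr (minimum count 10), TMM factors and a robust quasi-likelihood fit with load group as its only term. P-values were two-sided and adjusted after Benjamini and Hochberg over 15955 genes. SEs were derived from the F statistic. TPM used union exon lengths. Alternatives included DESeq2 1.42.0 and limma-voom (limma 3.58.1), and the routines were tested on simulated data. An exact permutation test of 3 against 3 kidneys cannot give a p below 0.1. Pairs of libraries within a group differed by 21.4 to 100 times counting noise, so none was counted as a repeat, and p-values measure the spread between these kidneys.

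The members and lists were chosen with earlier results of these data known. Named were all 10 members, the 3 genes of each pathway list with the smallest p and a mean of at least 1 CPM, and the 4 genes nearest in pattern to Aqp2 and Scnn1g. The rule also took the 2 highest-level genes of each cell type list, of which those that touch a result are printed, and cell types are otherwise given as list sums and counts.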

Additional observations from a re-analysis of the deposited data

How the results depend on the processing

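The count of 0 members called held under DESeq2's size factors, library totals, other filters, a fit without robust estimation, limma-voom, mutation load as a number, sex as a term, and without both control 2 and high-load 1. It was 2 under DESeq2, 3 under DESeq2 without control 2, 0 to 1 with each library left out, and 4 at an unadjusted p under 0.05. Genes called in the 5 pathway lists numbered 0 in edgeR, 15 under DESeq2, 6 under DESeq2 without control 2, 0 to 9 with each library left out, 3 at an adjusted p under 0.1 and 23 at an unadjusted p under 0.05. In the 10 marker lists 0 became 4 with no filter, 1 with mutation load as a number, 43 under DESeq2, 23 under DESeq2 without control 2, 0 to 26 with each library left out, 13 at an adjusted p under 0.1 and 56 at an unadjusted p under 0.05. The highest of each range came without high-load 2, where 807 of all genes were called, or 4.96%. Over all genes given a p, with no filter on low counts, the share was 7.13% of 23811 under DESeq2 and 2.57% of 23623 under DESeq2 without control 2. Over the 15955 filtered genes in edgeR it was 3.2% at an adjusted p under 0.1 and 24.2% at an unadjusted p under 0.05. With no filter 46 genes were called higher and 4 lower of 23865, and with mutation load as a number 8 and 2 of 15955. Signs turned only in members near a fold change of 1: Scnn1a was at -0.0033 without control 3; Avpr2 ranged from -0.038 (without high-load 1) to 0.52 with each library left out and was at -0.22 without control 2 and high-load 1. Nr3c2 ranged from -0.091 to 0.013 with each library left out, and was at 0.065 with library totals, 0.013 without control 2, 0.050 without control 2 and high-load 1, 0.0050 under DESeq2 without control 2 and 0.015 with sex as a term. The cause was not tested. The log2 difference of Aqp4 over Aqp3 ranged from -1.22 to 0.11 with each library left out, and those of the other 7 ratios kept their sign. Library totals moved the median log2 fold change of all genes to 0.13, and the change of Nr3c2 to 0.065 is smaller than that shift. With 1 library left out, log2 fold changes ranged from -1.71 to -0.47 for Aqp2, from -1.15 to -0.31 for Aqp3, from -1.88 to -0.91 for Aqp4, from 0.46 to 0.64 for Scnn1b, from 0.28 to 0.56 for Scnn1g, from 0.20 to 0.44 for Hsd11b2 and from -0.97 to -0.63 for Sgk1. Replicate numbers are not stated to pair the mice, and deviations of same-numbered kidneys correlated at 0.124, -0.182 and 0.049 over genes. With the replicate number as a block, 0 members were called and 1 gene of all tested, against 3 without it. Avpr2, with 8 to 24 counts, was not tested under the filter of at least 1 CPM in 3 kidneys. The fits with sex as a term, DESeq2 without control 2, and without control 2 and high-load 1 were chosen after seeing the data. The fit with sex as a term amounts to leaving control 2 out and is not a check apart from it.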
